A study of Mus musculus with 6 samples.

Results

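The interleukin-1 (IL-1) family examined here comprised 8 genes: the ligands Il1a, Il1b and Il33, the antagonist Il1rn, the signalling receptors Il1r1 and Il1rl1, the decoy receptor Il1r2 and the shared co-receptor Il1rap. They were taken from 22815 genes on a 1-colour Agilent expression array by matching the transcript accession of each probe to these symbols, which gave 16 probes. Whole hearts of 6 mice were measured, 1 array per mouse. All were male C57BL6 mice, 10 weeks old, starved for 16 h and injected intraperitoneally with 20 mg/kg of the bacterial endotoxin lipopolysaccharide (LPS). At 3 and 24 h after LPS, 3 mice received recombinant human thrombomodulin (rhTM), the soluble recombinant version of an endothelial thrombin receptor, and 3 mice received saline. RNA was taken at 30 h. Since both groups had LPS and hearts of untreated mice were not analysed here, the values show the difference between treatments and not the response to LPS.

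IL-1α and IL-1β signal through the receptor encoded by Il1r1, which needs the co-receptor encoded by Il1rap to pass the signal to MyD88, IRAK kinases and NF-κB. The pathway has built-in brakes: the Il1rn product occupies the receptor without activating it, and the Il1r2 product binds IL-1 but lacks a signalling domain. IL-33 is a nuclear alarm cytokine released by damaged cells, in the heart chiefly by stromal cells such as fibroblasts and endothelium. It acts through ST2, the product of Il1rl1, again with the Il1rap product as partner, and a soluble form of ST2 acts as its decoy. IL-1 signalling is known to depress contraction of the heart in sepsis.

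Promoter sequences from RefSeq (build GRCm38.p6), each holding 250 bases before and 50 after an annotated start, are shown to set genes whose signals ran in parallel across the arrays beside one another. All 8 members matched an entry. Both strands were searched for TATAAA (the TATA box), TTGNGNAA (a C/EBP motif), TGANTCA (an AP-1 motif) and an NF-κB motif (GGGA, any 2 bases, then TTCC), all picked after the values were known. The capitals mark matches, and no 2 marked matches overlap. The first 2 sequences are those of Il1b, at chr2:129371090-129371389 on the minus strand, and of the last of 3 annotated Il1rn starts, at chr2:24345121-24345420 on the plus strand.
Il1b: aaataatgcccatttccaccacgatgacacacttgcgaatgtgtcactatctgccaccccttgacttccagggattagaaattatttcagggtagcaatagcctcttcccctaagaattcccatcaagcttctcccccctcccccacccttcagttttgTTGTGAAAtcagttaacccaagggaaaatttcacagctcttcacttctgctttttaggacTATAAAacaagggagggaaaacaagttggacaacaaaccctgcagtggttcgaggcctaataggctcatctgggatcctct
Il1rn: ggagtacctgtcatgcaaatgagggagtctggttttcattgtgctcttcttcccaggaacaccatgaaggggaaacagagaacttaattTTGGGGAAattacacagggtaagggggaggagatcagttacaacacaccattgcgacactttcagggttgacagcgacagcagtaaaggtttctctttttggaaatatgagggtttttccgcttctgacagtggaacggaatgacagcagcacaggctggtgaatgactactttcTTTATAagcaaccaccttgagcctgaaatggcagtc
Both windows held 1 C/EBP match and 1 TATA match, motifs found in 13.3% and 13.6% of all 32851 promoter windows. The Il1a window, not shown, also held 1 of each. Of the other Il1rn windows, that of the first start held neither and that of the second only the C/EBP match. The TATA match began at base 220 in Il1b, before the start. In Il1rn it read in reverse and began at base 265, after the start. The next 2 sequences are those of the second of 2 annotated Il33 starts, at chr19:29945540-29945839 on the plus strand, and of Il1r2, at chr1:40085843-40086142 on the plus strand.
Il33: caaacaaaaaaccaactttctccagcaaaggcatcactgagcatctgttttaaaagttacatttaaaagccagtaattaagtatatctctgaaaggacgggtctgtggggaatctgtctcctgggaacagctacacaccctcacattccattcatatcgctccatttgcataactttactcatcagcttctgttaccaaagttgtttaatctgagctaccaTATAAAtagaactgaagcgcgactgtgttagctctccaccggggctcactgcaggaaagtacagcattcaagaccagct
Il1r2: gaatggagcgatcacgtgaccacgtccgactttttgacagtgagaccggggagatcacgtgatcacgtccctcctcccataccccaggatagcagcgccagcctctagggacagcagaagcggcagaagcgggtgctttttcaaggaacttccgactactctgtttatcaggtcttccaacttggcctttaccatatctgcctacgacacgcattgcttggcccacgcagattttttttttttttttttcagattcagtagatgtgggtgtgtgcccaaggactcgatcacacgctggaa
The Il33 window held 1 TATA match and the Il1r2 window held none of the 4 motifs, although the Il1r2 and Il1rn values below ran nearly in parallel. The NF-κB motif, found in 1.47% of all windows, matched no member window, and the AP-1 motif, found in 7.81%, matched that of Il1a and that of the first Il1rn start. No motif matched the windows of Il1r1, Il1rap or Il1rl1. A match is a description of letters and the array probes were not tied to a particular start site.

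Levels below are given as the log2 ratio of a probe's signal to its array's 75th percentile, so that 0 is the level of that percentile, and a difference is rhTM minus saline. Each array had 59305 spots besides controls, with 54.8% to 62.8% well above background and 0 saturated. Saline 1 and 2 were on slide 1 (scan 1), and saline 3 and all rhTM arrays were on slide 2 (scan 2). A fit with the slide as a block therefore gives the same number as the rhTM mean minus saline 3, and this is the value on the shared slide given below. In a fit without saline 3, the saline arrays are all on slide 1 and the rhTM arrays all on slide 2. Treatment and slide cannot be told apart in that fit. Where 2 genes are compared within an array, only the change of their log2 difference between the groups is meaningful, since probes differ in brightness, and the difference itself does not rank their levels.

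Of the 8 members, 7 had a probe that stood well above background in every heart of one group or both, and were tested with limma over 14701 genes. Their mean was below that of saline in rhTM hearts for 6 of 7 (Il1b, Il1rn, Il1r1, Il1r2, Il1rap and Il33), against 49.2% of all genes, and above it for Il1rl1. At an adjusted p under 0.05, 0 of 7 were called, against 5.17% of all genes tested. At an unadjusted p under 0.05 there were 3 of 7 (Il1r1, Il1rl1 and Il33), against 30.7% of all genes. With the replicate number of the labels as a block, which pairs the arrays of the same number, 2 of 7 were called lower (Il1r1 and Il33), against 1.65% of all genes, while with the same block over all probes 0 of 10 member probes were called, against 0.356% of all probes called lower. With the slide as a block, 0 of 7 were called. The median difference over the 7 genes was -1.37, against 0.01 over all genes, and on the shared slide it was -2.12 against -0.00248.

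**Figure D1:**
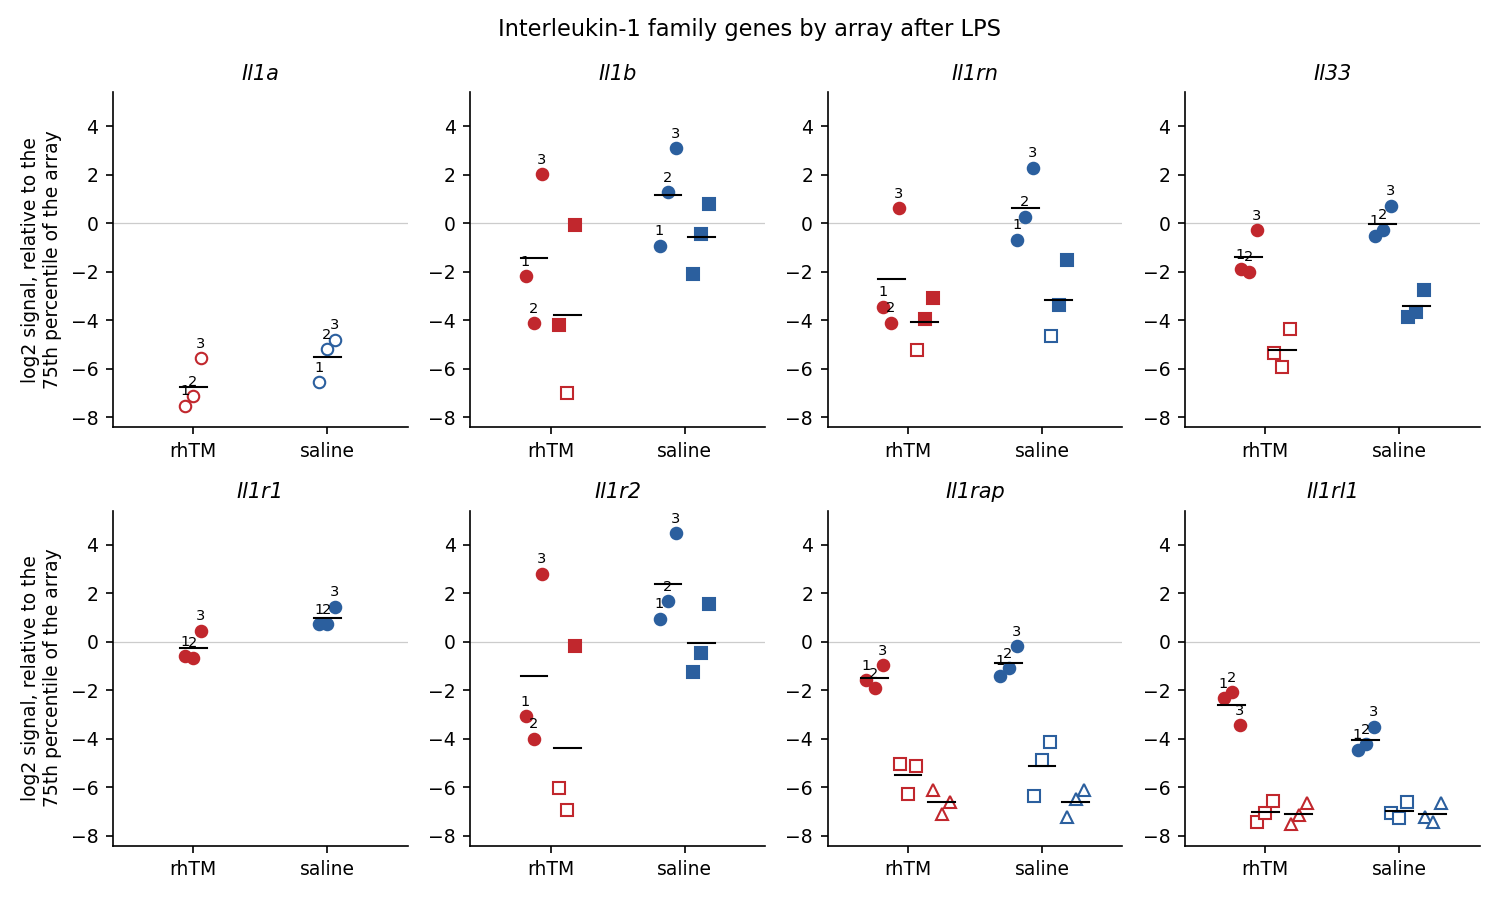
Log2 signal of every member probe relative to the 75th percentile of its array, in 3 rhTM hearts (red, left) and 3 saline hearts (blue, right). Circles are the brightest probe of each gene with the replicate number above, squares and triangles are other probes, open symbols are not well above background, and bars are group means. Il1r1 in the rhTM hearts sat below all saline hearts, from -0.66 to 0.46 against 0.71 to 1.44. Array 3 of each group was the highest for the brightest probe of Il1b, Il1rn, Il1r1, Il1r2, Il1rap and Il33.

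Among the ligands, Il1b had a level of -2.19, -4.11 and 2.02 in rhTM 1, 2 and 3, against -0.93, 1.27 and 3.09 in saline 1, 2 and 3. Array 3 was the highest of each group and rhTM 3 exceeded saline 1 and 2, so the groups overlapped. The difference was -2.57 ± 1.68 (SE), a 5.94-fold lower mean signal with a 95% interval on the log2 scale from -6.60 to 1.46, and it was not called (limma, adjusted p = 0.325). On the shared slide, against saline 3 alone, it was -4.52. Leaving out 1 array moved it from -1.23 without rhTM 2 (limma, adjusted p = 0.678) to -4.29 without rhTM 3 (0.105). A second Il1b probe had -4.20, -7.00 and -0.09 in rhTM hearts, against -2.08, -0.46 and 0.80 in saline hearts. It followed the same order within each group, with a difference of -3.18 ± 1.68 (limma over 30322 probes, adjusted p = 0.248), and was well above background on 2 of 3 rhTM arrays.

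Il1a, which encodes the form of IL-1 that is active without cleavage, had 1 probe. It gave -7.51, -7.12 and -5.55 in rhTM hearts, against -6.55, -5.20 and -4.80 in saline hearts. It was not well above background on any of the 6 arrays, so no fold is given.

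Il33 had a level of -1.91, -2.0 and -0.29 in rhTM hearts, against -0.52, -0.27 and 0.72 in saline hearts. Only rhTM 3 reached the range of the saline hearts, lying between saline 1 and saline 2. The difference was -1.37 ± 0.55 (SE), a 2.59-fold lower mean signal with a 95% interval from -2.68 to -0.06 (limma, adjusted p = 0.150), and it was -2.12 on the shared slide. With the replicate number as a block it passed in the fit over genes (limma, adjusted p = 0.0477) but not in the fit over all probes (0.0581), and the same-numbered arrays differed by -1.38, -1.72 and -1.01. Leaving out 1 array moved the difference from -1.0 (without saline 3) to -1.93 (without rhTM 3), not called in any of these fits. A second Il33 probe was well above background on all saline arrays and on 0 of 3 rhTM arrays, with -5.35, -5.91 and -4.37 in rhTM hearts, against -3.88, -3.64 and -2.74 in saline hearts. Its groups did not overlap and it was at least 2.58-fold lower in rhTM hearts, the saline mean being set against the higher of the probe's own signal and the lowest signal well above background on each rhTM array. That probe was not called (limma over all probes, adjusted p = 0.0818, and 0.0506 with the replicate block).

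The antagonist Il1rn had a level of -3.44, -4.10 and 0.61 in rhTM hearts, against -0.68, 0.27 and 2.27 in saline hearts. As for Il1b, rhTM 3 lay above saline 1 and 2 and the groups overlapped. The difference was -2.93 ± 1.34 (SE), a 7.63-fold lower mean signal with a 95% interval from -6.14 to 0.28 (limma, adjusted p = 0.191), and it was -4.58 on the shared slide. The same-numbered arrays differed by -2.76, -4.37 and -1.67, and the replicate block gave an adjusted p of 0.0559. Leaving out 1 array moved the difference from -2.04 (without rhTM 2) to -4.39 (without rhTM 3), not called in any of these fits. A second Il1rn probe was well above background on 2 of 3 arrays of each group and was not tested, with -5.23, -3.94 and -3.09 in rhTM hearts, against -4.64, -3.35 and -1.51 in saline hearts.

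Relative to Il1b on the same array, Il1rn was at -1.25, 0.02 and -1.41 in rhTM hearts, against 0.26, -1.0 and -0.81 in saline hearts. This antagonist-to-agonist difference therefore overlapped between groups and changed by -0.36 (exact two-sided permutation test, p = 0.5, also after adjustment), and its sign depended on the probes used, being 0.95 with the mean of all probes of each gene. The smallest p this test allows is 0.1, so it could not have shown a change. No value is given relative to Il1a, which was at background.

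The signalling receptor Il1r1 had a level of -0.60, -0.66 and 0.46 in rhTM hearts, against 0.71, 0.73 and 1.44 in saline hearts. Every rhTM heart was below every saline heart, which held for 1 of 7 members in this direction and for 18.7% of all genes. The difference was -1.23 ± 0.38 (SE), a 2.34-fold lower mean signal with a 95% interval from -2.13 to -0.33 (limma, adjusted p = 0.0964). The same-numbered arrays differed by -1.31, -1.39 and -0.99 and each lay close to the mean difference. Blocking on the replicate number, Il1r1 was called in the fit over genes (limma, adjusted p = 0.0465) but the same probe was not in the fit over all probes (0.0581). On the shared slide the difference was -1.71 (limma with the slide block, adjusted p = 0.0869). Without rhTM 3, Il1r1 passed at -1.59 (limma, adjusted p = 0.0458), in a fit that called 3.48% of all genes lower. It did not pass when any other array was left out, with -1.06 without rhTM 1 (limma, adjusted p = 0.290), -1.03 without rhTM 2 (0.302) and -0.99 without saline 3 (0.0861).

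The decoy receptor Il1r2 had the widest range of the members. Its level was -3.06, -4.00 and 2.80 in rhTM hearts, against 0.95, 1.67 and 4.46 in saline hearts. Heart 3 of each group was again the highest, and rhTM 3 stood 6.33 above the mean of the other two rhTM hearts. The difference was -3.78 ± 1.86 (SE), a 13.7-fold lower mean signal with a 95% interval from -8.23 to 0.68 (limma, adjusted p = 0.215), and it was -5.88 on the shared slide. Leaving out 1 array moved the difference from -2.49 without rhTM 2 (limma, adjusted p = 0.481) to -5.88 without rhTM 3, where it passed (0.0458). It was -2.96 without rhTM 1 (0.460) and -2.73 without saline 3 (0.333). The second Il1r2 probe gave -6.02, -6.94 and -0.19 in rhTM hearts, against -1.26, -0.47 and 1.56 in saline hearts, and was well above background on 1 of 3 rhTM arrays. Its difference was -4.33 ± 1.76 (limma over all probes, adjusted p = 0.164).

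Relative to Il1r1 on the same array, Il1r2 was at -2.46, -3.34 and 2.34 in rhTM hearts, against 0.24, 0.94 and 3.01 in saline hearts. The decoy-to-receptor value overlapped between groups, with a change of -2.55 (exact permutation p = 0.3, adjusted over 4 such differences 0.4).

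Il1rap, the co-receptor of both the IL-1 and the IL-33 receptors, had a level of -1.58, -1.93 and -0.98 in rhTM hearts, against -1.41, -1.08 and -0.18 in saline hearts. The groups overlapped and the difference was the smallest of the 7, at -0.61 ± 0.39 (SE), with a 95% interval from -1.54 to 0.33 (limma, adjusted p = 0.319). On the shared slide it was -1.31 (limma with the slide block, adjusted p = 0.0983), and it moved from -0.25 (without saline 3) to -0.86 (without rhTM 3) when 1 array was left out, not called in any of these fits. Another 2 Il1rap probes, designed on other transcript accessions, were not clearly above background in any heart.

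Il1rl1, the gene of the IL-33 receptor ST2, ran the other way. Its level was -2.34, -2.07 and -3.44 in rhTM hearts, against -4.46, -4.23 and -3.51 in saline hearts. Before division by its array's percentile, the signal was 91.8, 110.7 and 37.8 in rhTM hearts, against 33.4, 35.7 and 34.7 in saline hearts. That percentile was 732 and 671 for saline 1 and 2, on slide 1. On slide 2 it was 394 for saline 3 and 463, 466 and 412 for rhTM 1, 2 and 3. The part of the percentile in the Il1rl1 levels was not tested. The levels of the groups did not overlap, which held for 17% of all genes in this direction. However, the lowest rhTM level and the highest saline level, both on arrays numbered 3, differed by 0.06. The difference was 1.45 ± 0.43 (SE), a 2.73-fold higher mean signal with a 95% interval from 0.42 to 2.47 (limma, adjusted p = 0.0907). It was called without rhTM 3 (1.86, limma, adjusted p = 0.0445) and without saline 3 (1.73, limma, adjusted p = 0.0279), in fits that called 2.6% and 20.5% of all genes higher. The fit without saline 3 cannot tell treatment from slide. The Il1rl1 difference was 1.17 to 1.36 without each of the other arrays (limma, adjusted p = 0.213 to 0.292). With normexp background correction the difference was 0.43 (limma, adjusted p = 0.378), and on the shared slide it was 0.89 (0.312). With the mean of its 3 probes it was 0.47 (0.264). The other 2 Il1rl1 probes, 1 of them designed on the same transcript accession as the tested probe, were not clearly above background in any heart, so transcript forms could not be told apart.

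The mean differences of the IL-33 receptor and its ligand thus had opposite signs. Il1rl1 relative to Il33 on the same array was at -0.43, -0.08 and -3.15 in rhTM hearts, against -3.93, -3.96 and -4.22 in saline hearts. All rhTM hearts were above all saline hearts, with a change of 2.82 and 3.00 on the shared slide. The exact two-sided permutation test gave p = 0.1, the smallest that 3 arrays against 3 allow, and 0.4 after adjustment over the 4 differences.

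**Figure D2:**
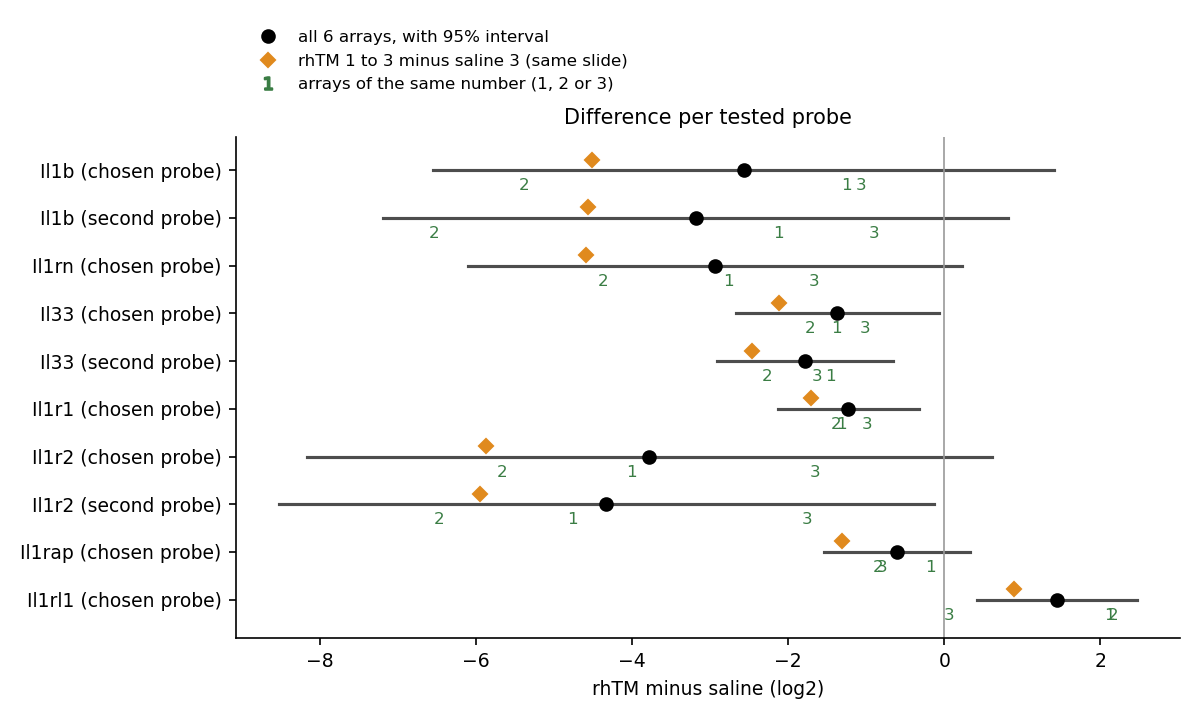
Difference between rhTM and saline hearts on the log2 scale for the 10 tested probes of the members, with the 95% interval of the limma fit over all probes (black), the rhTM mean minus saline 3 on the shared slide (orange) and the differences of same-numbered arrays (green digits). The Il1r1 interval lies below 0, the intervals of the chosen Il1b, Il1rn and Il1r2 probes are wide and cross 0, and Il1rl1 lies above 0 with its number 3 difference at 0.06.

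Of the 10 tested probes, 9 were lower in the rhTM mean, 0 were called (against 3.56% of all probes tested) and 2 were lower with no overlap between the groups, against 15.8% of all probes. Another 1, that of Il1rl1, was higher with no overlap, against 18.3%. The arrays numbered 3 carried much of the spread. Array rhTM 3 was the highest rhTM array for 6 of 7 genes, against 40.5% of all genes, and saline 3 was the highest saline array for 7 of 7, against 43.9%. At each of the 3 replicate numbers the rhTM array was below its saline counterpart for 6 of 7 genes, against 29.3% of all genes. Over the 6 arrays the 6 genes lower in the mean were alike in pattern, with Pearson r between 0.880 (Il1b and Il1r1) and 0.997 (Il1rn and Il1r2). Il1rl1 had r from -0.79 (with Il1r1) to -0.47 (with Il1rap). These coefficients describe 6 arrays that share the group difference and the high arrays numbered 3.

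Among 13689 genes compared by the same coefficient, the 3 nearest to Il1rn were the cysteine protease inhibitor gene Stfa2 (0.999), the syntaxin gene Stx11 (0.999) and Batf (0.997), an AP-1 family transcription factor. Batf was also nearest to Il1r2 (0.997), followed by Il1rn itself and the stefin family gene Cstdc5. Nearest to Il1r1 were Pdpn, which encodes the membrane glycoprotein podoplanin, the kinase gene Map3k8 and the metalloreductase gene Steap1 (0.999, 0.999 and 0.998). Il33 was nearest to the carbonic anhydrase gene Car13 (0.999), the phosphatase gene Dusp14 (0.999) and Layn (0.997), which encodes a hyaluronan receptor. For Il1b they were Tmem178 (0.997), the orphan receptor gene Gpr176 and the zinc finger gene Bnc2. Il1rap was nearest to Bmper (0.995), an extracellular BMP modulator, Slfn3 and Gask1b. Il1rl1 was nearest to the small GTPase gene Rab1b (0.998), the phosphatase gene Dusp7 and Ilkap.

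The receptor genes Il1r2, Il1r1, Il1rl2, Il1rl1, Il18r1 and Il18rap lie in this order next to one another on mouse chromosome 1 in the RefSeq annotation of GRCm38.p6. Along that run the differences were -3.78 for Il1r2, -1.23 for Il1r1, 1.45 for Il1rl1 and -0.37 for Il18r1, a chain of the IL-18 receptor. The IL-36 receptor gene Il1rl2 stayed at background on all 6 arrays, and Il18rap was well above it on 2 of 6 and was not tested. None of these genes was called in the fit without a block. On chromosome 2, Il1a lies next to Il1b, and Il1rn next to Il1f10, which was also at background throughout.

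The signal of a whole heart depends on its cells, and fewer cells of a type and less RNA per cell cannot be told apart. Cardiomyocyte markers such as Myh6 and Tnnt2 all passed the filter on dim probes (8 of 8), as the tissue label says. Their mean level was 8.05, 8.12 and 7.53 in rhTM hearts, against 7.40, 7.54 and 6.60 in saline hearts, lowest on array 3 of each group. Of the 8, 7 were higher in the rhTM mean and 1 (Pln) was called higher, against 2.75% of all genes. Their median difference was 0.78, and 1.15 on the shared slide, opposite in sign to most members. Their part in the member differences was not tested. Neutrophils are known to express Il1r2, Il1b and Il1rn, and 12 of 13 of their markers had a probe. Of the 11 neutrophil markers tested, 10 were lower in the rhTM mean and 1 (Cd177) was called lower, against 2.41% of all genes, with a median difference of -3.40 and -4.00 on the shared slide. Cd177 was well above background on 0 of 3 rhTM arrays, Ngp on 1 and Mmp9 on 2. These genes thus passed the filter on dim probes through the saline hearts alone. The mean level of the 11 markers was -2.56, -3.07 and 1.18 in rhTM hearts, against 0.13, 0.96 and 2.56 in saline hearts. Their summed level relative to the percentile was 85.09 to 487.89 in rhTM hearts, against 135.91 to 1037.53 in saline hearts. Csf3r, the 1 tested marker higher in the rhTM mean (0.18), had the highest level of them in rhTM 1, rhTM 2 and saline 1. It therefore weighed most on those sums. Csf3r was at 6.60, 6.37 and 6.30 in rhTM hearts, against 6.26, 6.19 and 6.30 in saline hearts. The mean of the neutrophil markers had the same order of arrays within each group as Il1r2. The other members lower in the mean, Il1b, Il1rn, Il1r1, Il1rap and Il33, had this order too. The part of the neutrophil markers in the member differences was not tested.

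**Figure D3:**
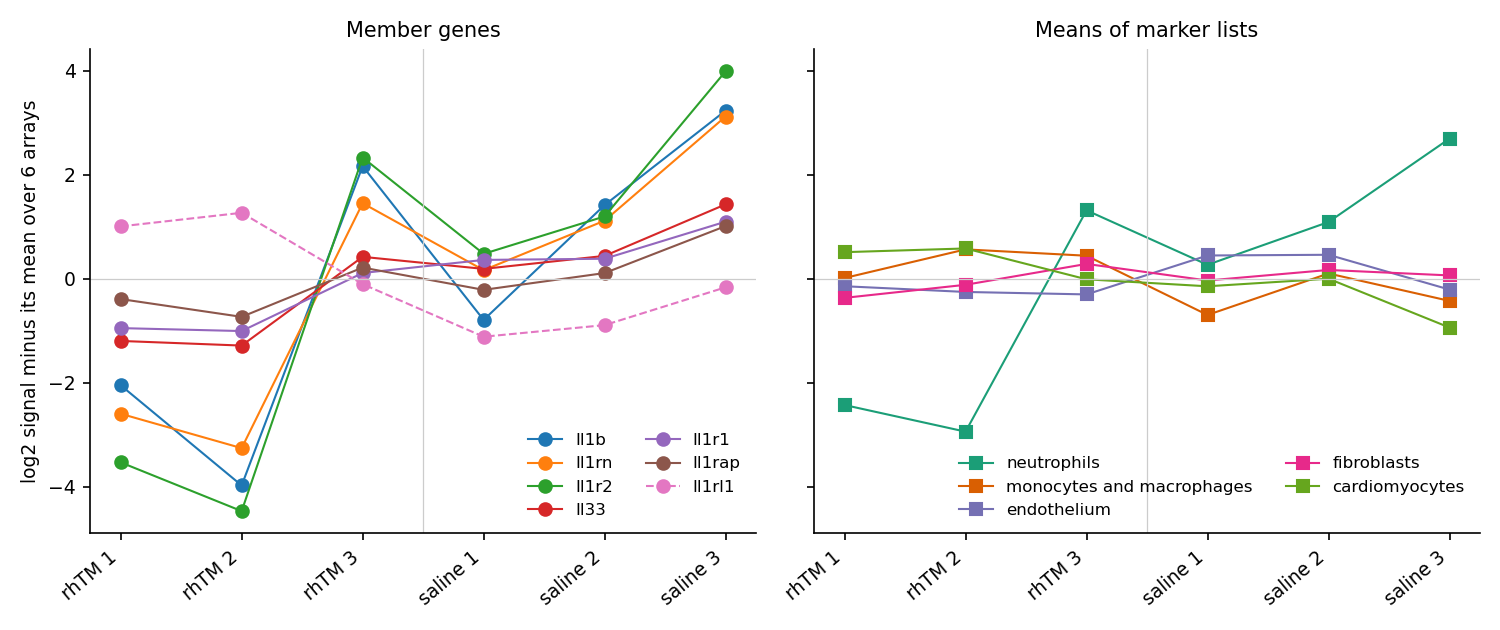
Log2 signal minus its mean over the 6 arrays, for the 7 tested members (left) and for the mean of 5 marker lists (right), with rhTM 1 to 3 left of saline 1 to 3. All members shown except Il1rl1 peaked within their groups at rhTM 3 and saline 3, as the neutrophil list did (1.18 and 2.56 before centring). The mean of the monocyte and macrophage list was between 1.55 and 2.10 in rhTM hearts, against 0.84 to 1.63 in saline hearts.

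Other cell types that make or sense these cytokines were followed in the same way. Monocyte and macrophage markers had a mean level of 1.55, 2.10 and 1.97 in rhTM hearts, against 0.84, 1.63 and 1.11 in saline hearts, with 5 of 14 lower, 9 higher and 1 (Cx3cr1) called higher, against 2.75% of all genes. Cx3cr1 was not called with the slide block (limma, adjusted p = 0.0549), and with the replicate block Ccr2 was called as well (0.0391). Cx3cr1 and Ccr2 were each well above background on 1 of 3 saline arrays. Fibroblast markers were at 2.78, 3.03 and 3.43 in rhTM hearts, against 3.12, 3.32 and 3.21 in saline hearts, and endothelial markers at 2.01, 1.90 and 1.85 in rhTM hearts, against 2.60, 2.61 and 1.94 in saline hearts. In these lists 6 of 9 fibroblast and 8 of 10 endothelial markers were lower in the rhTM mean, and neither had a called gene in the fit without a block. With the replicate block the fibroblast marker Lum was called higher (limma, adjusted p = 0.0431), against 2.43% of all genes. With the slide block the fibroblast marker Dpt was called higher (limma, adjusted p = 0.0262), in a fit that called 563 of 14701 genes higher. Pdgfra, also of the fibroblast list, differed by -1.10 and was not called (limma, adjusted p = 0.0665, and 0.0512 with the slide block). Pericyte and smooth muscle markers were at 1.79, 1.87 and 1.62 in rhTM hearts, against 2.54, 2.65 and 1.95 in saline hearts, with 4 of 6 lower and 2 higher. Acta2 and Pdgfrb were called lower and Rgs5 higher, against 2.41% and 2.75% of all genes. With the slide block these 3 were not called (limma, adjusted p = 0.0605 to 0.0895). Mast cells carry ST2, and their markers had a mean level of -2.48, -2.86 and -2.73 in rhTM hearts, against -3.68, -3.37 and -3.48 in saline hearts. Of these, 5 of 6 tested markers were higher and 1 (Mcpt4) was called higher, against 2.75% of all genes. With the slide block Mcpt4 was not called (limma, adjusted p = 0.0514) and Cma1 was (0.0262). Mcpt4 was well above background on 1 of 3 saline arrays, and Cma1 and Cpa3 on 2 of 3. The mean of lymphocyte markers was -0.03, 0.20 and 0.21 in rhTM hearts, against -0.59, -0.57 and -0.07 in saline hearts, with 6 of 6 higher and 0 called, while Cd3g, Cd8a, Ncr1 and Klrb1c were at background. The means of the mast cell and lymphocyte lists lay higher in every rhTM heart than in every saline heart, as Il1rl1 did. The mean of 3 tested B cell markers did so too, at -3.29, -3.31 and -3.32 in rhTM hearts, against -3.52, -3.61 and -3.35 in saline hearts. The part of these lists in the Il1rl1 difference was not tested.

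Of the remaining family ligands and binding proteins, 2 of 7 were tested and 0 called. Il18bp, the secreted inhibitor of IL-18, differed by -0.68 (limma, adjusted p = 0.114), and the cytokine gene Il18 by 0.85 (0.214). Il1f10 was at background, and the IL-36 genes Il36a, Il36b, Il36g and Il36rn matched no kept probe. Of the remaining receptor chains, 2 of 6 were tested and 0 called. Sigirr, an inhibitory chain, differed by -0.53 (limma, adjusted p = 0.441) and Il18r1 by -0.37 (0.563), but on the shared slide these values were 0.53 and 0.23, the opposite sign.

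All 18 genes of the signalling cascade below the IL-1 receptor were tested, with 12 lower, 6 higher and a median difference of -0.26. Called lower was 1 of 18, Myd88, the adaptor shared with Toll-like receptors, at -1.54 ± 0.29 (limma, adjusted p = 0.0430), a call that was lost with the replicate block (0.0563) and with the slide block (0.0934). Over all genes 2.41% were called lower in the fit without a block. Irak3, an inhibitory IRAK, differed by -2.03 ± 0.58 (limma, adjusted p = 0.0863). Ikbkb and Ikbkg, which encode a catalytic and a regulatory subunit of the IκB kinase complex, differed by -0.59 and -0.59 (limma, adjusted p = 0.105 and 0.217). On the shared slide Ikbkb was at -0.34 and Ikbkg at -0.02, and with the mean of all probes they were at -0.95 and -0.19. Of the genes for IL-1 processing and release, 10 of 13 were tested, with 7 lower, 3 higher, 0 called and a median of -0.44. The calpain genes Capn1 and Capn2, whose products cleave pro-IL-1α, differed by -0.55 and -0.54 (limma, adjusted p = 0.105 and 0.111). Gsdmd, the pore through which IL-1β leaves cells, differed by -1.22 (0.119), and the inflammatory caspase gene Casp4 by -0.99 (0.329). Nlrp3, Nlrc4 and Nlrp1b did not pass the filter on dim probes.

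Of 24 IL-1 target genes 21 were tested, and the rhTM mean was below the saline mean for 21 of 21, against 49.2% of all genes, with a median difference of -2.49 and -2.75 on the shared slide. Called lower was 1 of 21, Csf3, the granulocyte growth factor, which was at least 8.03-fold lower (limma, adjusted p = 0.0279), against 2.41% of all genes. That bound was set as for the second Il33 probe, since Csf3 was well above background on 0 of 3 rhTM arrays. Csf3 thus passed the filter on dim probes through the saline hearts alone. Sele, Il6 and Cxcl2 did so too, being well above background on 1, 2 and 2 of 3 rhTM arrays. With the replicate block 8 of 21 were called lower, against 1.65% of all genes. Mmp3, a matrix-degrading protease, was at -2.98 ± 0.72 (limma, adjusted p = 0.0633, and 0.0465 with the replicate block). Steap4, a metalloreductase, and Vcam1, an adhesion molecule of activated endothelium, differed by -1.35 and -1.48 (limma, adjusted p = 0.0642 and 0.0681). Several of these targets are also induced by other routes, such as tumour necrosis factor and LPS itself, and some are made by neutrophils.

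Of genes that respond to IL-33 through type 2 lymphocytes and macrophages, 6 of 11 were tested, with 3 lower, 3 higher and 0 called, and a median of 0.14. The type 2 cytokines Il4, Il5, Il13 and Il9 and the growth factor gene Areg were not clearly above background in any heart. Gata3, the transcription factor of type 2 lymphocytes, differed by 1.56 ± 0.39 (limma, adjusted p = 0.0672, and 0.0391 with the replicate block, where it was the 1 gene of the list called, against 2.43% of all genes called higher). Its probe was well above background on 1 of 3 saline arrays, and with normexp the difference was 0.39 (limma, adjusted p = 0.421). The macrophage gene Retnla differed by 2.72 ± 1.07 (limma, adjusted p = 0.147), and 0.55 on the shared slide. It too was well above background on 1 of 3 saline arrays, and with normexp it differed by 0.81 (limma, adjusted p = 0.305). Chil3 and Arg1, other genes of alternatively activated macrophages, differed by -2.83 and -2.77 (limma, adjusted p = 0.231 and 0.247), Arg1 being well above background on 2 of 3 rhTM arrays. The IL-33 response list thus held differences of both signs.

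**Figure D4:**
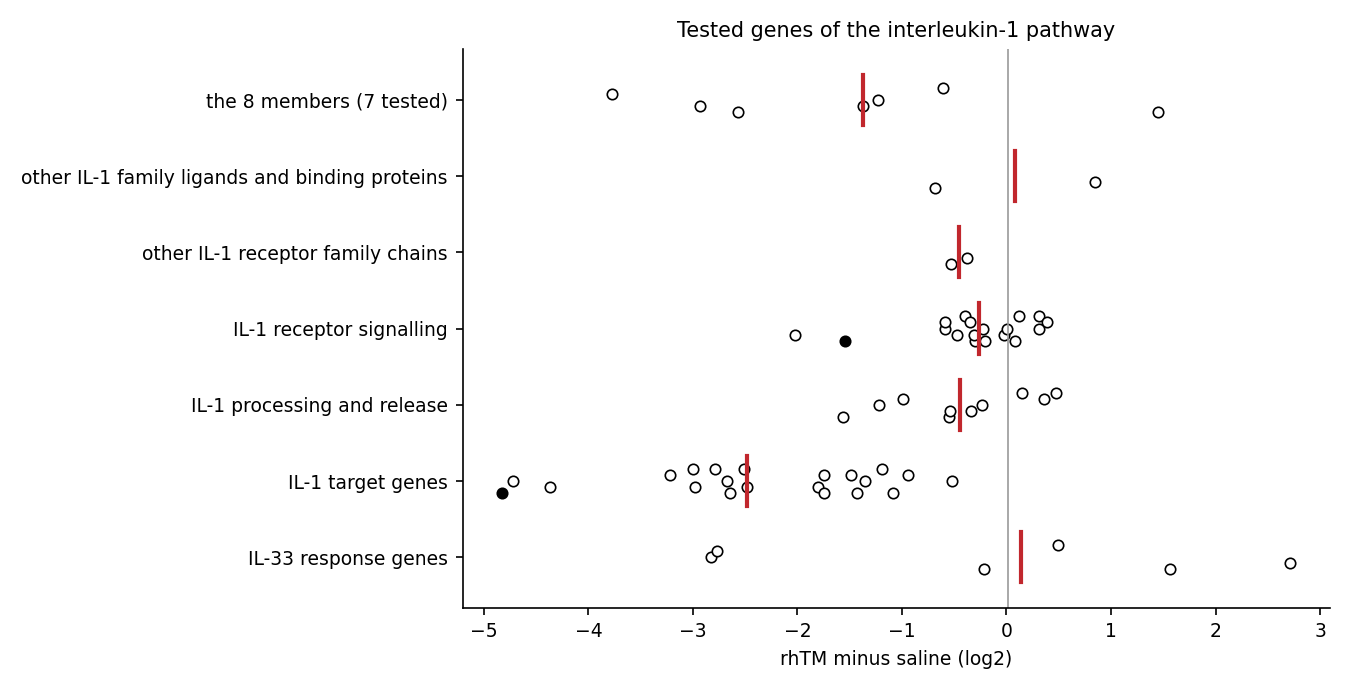
Difference between rhTM and saline hearts (log2) for each tested gene of the members and of 6 pathway lists. Filled points were called at an adjusted p under 0.05 (Myd88 and Csf3), red bars are list medians, and the grey line is the median of all genes at 0.01. All 21 tested IL-1 target genes lie left of 0, and Il1rl1 at 1.45 is the 1 member right of it.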

How the data were processed

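Total RNA from 6 mouse hearts was labelled with Cy3 and hybridised to 1-colour Agilent arrays, per the labels' protocols. The authors deposited spot intensity values from Agilent Feature Extraction, version 10.7.3.1 with an mm9 grid per the file headers and version 9.1 per the submitters' processing notes. The processed signal is a background-corrected intensity that was not normalised between arrays, per the file headers. A value table deposited with them is on a log2 scale, with centring and baseline unstated in these sources and column medians of -0.08, 0.03 and 0.08 for rhTM 1, 2 and 3 and -0.02, -0.16 and 0.10 for saline 1, 2 and 3. Set against the scanner values, its direction was the same, but each slide had its own baseline per probe (the baselines differed with an SD of 0.825), so it served only as an alternative.

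Here each processed signal was divided by its array's 75th percentile and taken to log2. Flagged outlier spots were left out, which removed 368 of 56605 probes, and spots of 1 probe were averaged. Of 56237 probes kept, 32789 were named with 1 symbol by looking up their accession in RefSeq (GRCm38.p6) and 23448 stayed unnamed. Each gene was represented by its probe of highest mean signal, and the test covered genes or probes well above background in every heart of one group or both. The groups were tested by limma (version 3.58.1, R 4.3.3, lmFit and eBayes with group alone) with Benjamini-Hochberg adjustment over all 14701 genes or 30322 probes, and calls at an adjusted p under 0.05. Differences between 2 members within an array were compared with an exact two-sided permutation test over arrays, adjusted over 4 differences, of which that against Il1a is not given because its probe was at background. The script was tested on simulated data.

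The members, lists, motifs and tests were chosen with earlier results of these data known. Named genes are all members with all probes, up to 4 genes of each list by p, and the 3 genes nearest to each member by Pearson r. Both groups carry the numbers 1 to 3. After subtracting group means, arrays sharing number 1, 2 or 3 had correlations of 0.319, 0.235 and 0.372 over genes (not independent points), and on that basis the number was used as a pairing, although the labels name no shared litter or day. The alternatives were quantile normalisation, median centring, normexp (offset 50, on median spot signals in place of the planned mean signals), other filters, slide and replicate blocks, array weights, the deposited table, the mean of all probes, and leaving out each array. The labels name separate mice as the replicates, and 3 arrays a group limit the precision of every value.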

Additional observations from a re-analysis of the deposited data

How the results depend on the processing

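Over 16 alternatives for each of the 7 tested members, 112 values in all, 93 kept their direction and their side of the threshold, 19 kept the direction and passed, and 0 reversed. Against 0 member genes called lower in the fit without a block, the replicate block gave 2, array weights 6, the values the authors deposited 5, and leaving out single arrays 0 to 2 (2 without rhTM 3). Member genes called higher numbered 1 with array weights, 1 with the deposited table and 0 to 1 without single arrays (1 without rhTM 3 and 1 without saline 3). Of the 10 member probes, 8 were called lower with array weights, 7 with the deposited table and 0 to 1 without single arrays (1 without rhTM 3 and 1 without saline 3), and 1 was called higher with array weights and with the deposited table, and 0 to 1 without single arrays. Of all 30322 probes, 8406 were called lower and 10352 higher with array weights. The deposited table gave 3665 and 3813, and the fit without saline 3 gave 5067 and 7159. These settings called many of all genes: 4581 lower and 4663 higher with array weights, 2314 and 2205 with the deposited table, and 2808 and 3007 without saline 3, against 355 and 405 in the fit without a block on all 6 arrays. In the fit without saline 3, treatment and slide cannot be told apart. Without rhTM 1, rhTM 2 or saline 1, 0 genes were called lower and 0 to 2 higher, and without saline 2 there were 3 lower and 55 higher. Normexp gave 212 lower and 200 higher, no filter on dim probes 19 and 132, the replicate block 242 and 357, and centring on the median 268 and 483. The difference of Il1rn minus Il1b reversed to 0.95 with the mean of all probes and ranged from -0.81 to 0.026 without single arrays (0.026 without saline 1). Sigirr reversed to 0.53 with the slide block and 0.29 with the deposited table, and Il18r1 to 0.23 and 0.11. The causes were not tested. Depth does not apply to arrays, but Il1a, 2 probes of Il1rap and 2 of Il1rl1 were too near background to be compared.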
